A study of Mus musculus with 12 samples.

Results

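The 10 genes described here write, maintain, erase or read methylated cytosine in DNA: Tet1, Tet2, Tet3, Dnmt1, Dnmt3a, Dnmt3b, Uhrf1, Tdg, Mbd1 and Mbd4. They were taken by symbol from the annotation of a mouse gene expression array. The list was chosen with earlier results of these data known. Of the 10, 9 have a row of their own and lie among the 16860 genes tested. Tdg appears only in 2 rows that it shares with its pseudogenes, so it was not tested and is given by its values. Of 63 differences of these members, 9 in each of 7 contrasts of genotype and passage, 3 passed the test (4 with replicate numbers as a block). In the 3 contrasts in which a member passed, 1.72%, 2.98% and 7.77% of all genes passed (5.41%, 7.94% and 13.2% with the block). The reader Mbd1 was lower in Tet2-/- cells on average over both passages, and the maintenance factor Uhrf1 was lower at passage 10 in Tet2-/- cells and on average over both genotypes.

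The cells came from bone marrow of Tet2fl/fl;CreER mice, enriched for Kit and infected with a retrovirus for AML1-ETO, a leukaemia fusion protein, with GFP as a marker. CreER is a Cre recombinase that 4-hydroxytamoxifen (4-OHT) activates, and fl marks an allele whose target segment Cre removes. Cells were replated for 3 rounds in methylcellulose and then grown in suspension with SCF, IL-3 and IL-6. The 4 groups, with 3 arrays each, are Tet2-/- cells at passage 10, Tet2fl/fl cells at passage 10, Tet2-/- cells at passage 2 and Tet2fl/fl cells at passage 2. All 4 groups derive from cells with the floxed alleles, CreER and AML1-ETO. Tet2-/- cells had been given 200 nM 4-OHT for 2 passages (4 days), and Tet2fl/fl cells had been given ethanol, so loss of Tet2, exposure to 4-OHT and activity of Cre cannot be told apart. Cells were passaged every 2 days, and those positive for GFP and CD16/32 and negative for CD11b and Gr1 were sorted. Whether the 3 replicates came from separate cultures or animals is not in the labels, so p-values measure only the spread between these samples.

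DNA methyltransferases place a methyl group on cytosine, mostly where it precedes guanine (CpG). Dnmt3a and Dnmt3b methylate new sites, and Dnmt1, led to newly copied DNA by Uhrf1, restores the pattern of the parent strand after replication. TET enzymes oxidise methylcytosine, and the glycosylase Tdg removes the later oxidation products for base excision repair, while Mbd1 and Mbd4 bind methylated CpG through a methyl-binding domain. TET2 and DNMT3A are among the genes often mutated in human clonal haematopoiesis and myeloid leukaemia.

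All values are log2 signals made by the authors with RMA, which corrects background, normalizes across arrays and summarises probes. A level of 1 gene is compared only with the same gene on other arrays, since probes of different genes differ in brightness. The median signal of an array was 5.57 to 5.68, and the correlation within groups was 0.984 to 0.991 over all rows. The number of arrays limits the precision. Among markers of the sort gate, Fcgr3, which encodes a CD16 receptor, had log2 values of 10.6 to 11.1 and Itgam, which encodes CD11b, 7.04 to 8.78. Mpo, a myeloid progenitor gene that was not sorted on, had 10.9 to 12.7. Ly6g, which encodes the Gr1 antigen, had log2 values of 4.77 to 7.61, and the related Ly6c1 4.32 to 5.56. Ly6c2, which encodes a protein close to Ly6g, had log2 values of 11.4 to 12.6 on these arrays of Gr1-negative cells. Markers of T cells (Cd3e, mean of 4.79, and Cd3d, 5.07) and the B cell gene Cd79a (mean of 5.19) lay near the filter on low values, a log2 value of 4.70. The B cell gene Pax5 lay further above it, with a mean of 5.73.

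The Uhrf1 promoter is shown because Uhrf1 is the member with the largest passage difference. RefSeq promoters (assembly GRCm38.p6) were matched for 9 of the 10 members. The window covers the 250 bases before the outermost annotated start of Uhrf1, at chr17:56303087-56303336 on the plus strand. Capitals mark TTCCCGC, the core of sites for E2F factors, which drive genes of DNA replication, and a CCAAT box.
Uhrf1 promoter: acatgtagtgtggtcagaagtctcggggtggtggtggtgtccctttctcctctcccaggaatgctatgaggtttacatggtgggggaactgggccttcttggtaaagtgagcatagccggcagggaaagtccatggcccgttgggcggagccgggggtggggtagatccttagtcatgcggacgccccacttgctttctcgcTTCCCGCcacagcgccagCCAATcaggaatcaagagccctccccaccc
The E2F core begins 48 bases before the start and the CCAAT box 30 bases before it. Both strands were searched, for TTCCCGC or GCGGGAA and for CCAAT or ATTGG, and these letters do not overlap. The E2F core is found in 3.86% of 27025 such promoter windows and CCAAT in 34.5%. Of the members' 9 windows, each before the outermost annotated start, 1 holds the E2F core, that of Uhrf1. A match describes the sequence and does not show that a factor binds there.

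Members differed in how rich their promoter windows are in CpG, the substrate of the enzymes described here. The Tet2 window held 51 CpG, a number that 0.1% of all windows reach, and the Dnmt3a window held 38, which 1.8% reach. The other windows held 22 (Mbd4), 21 (Dnmt3b), 19 (Tdg), 17 (Tet3), 15 (Tet1), 10 (Uhrf1) and 2 (Dnmt1), against a median of 6 over all windows. Each window lies before the outermost annotated start of its gene. Dnmt1 and Dnmt3a have 3 annotated starts each and Uhrf1 has 2, and their other starts were not examined. Methylation itself was not measured on these arrays.

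**Figure D1:**
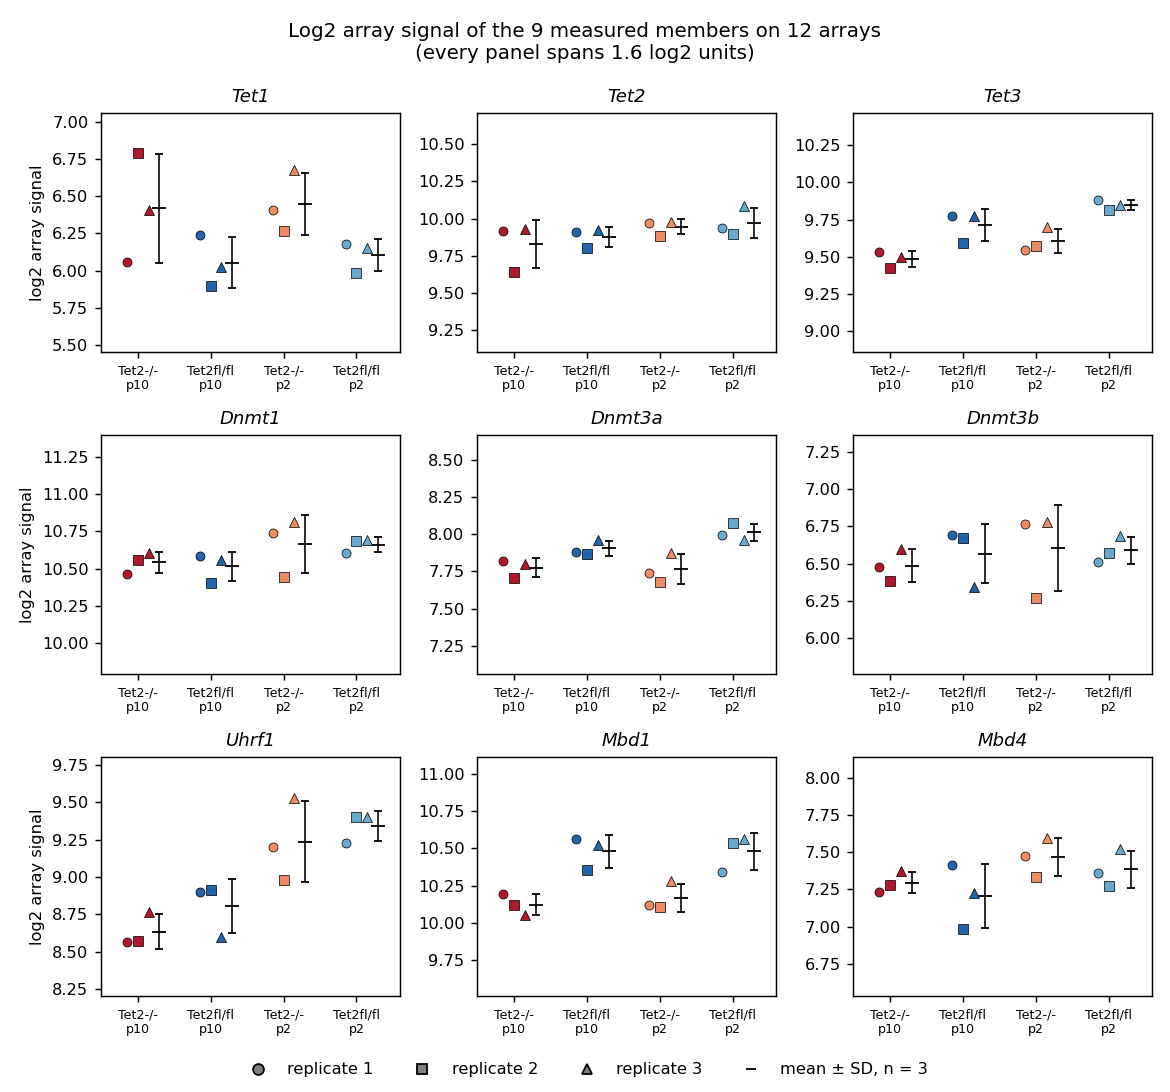
Log2 signal of the 9 members with a row of their own, 1 panel per gene, each point 1 array and each bar the mean of 3 arrays, for Tet2-/- and Tet2fl/fl cells at passages 10 and 2. Mbd1 was at 10.05 to 10.28 on the 6 Tet2-/- arrays and at 10.34 to 10.57 on the 6 Tet2fl/fl arrays, and Uhrf1 was at 8.56 to 8.91 at passage 10 and at 8.98 to 9.53 at passage 2.

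The first question of the design is which genes differ between cells that lost Tet2 and cells that kept it. Tet2, the targeted gene, had log2 values of 9.92, 9.64 and 9.93 in Tet2-/- cells at passage 10, against 9.91, 9.80 and 9.93 in Tet2fl/fl cells. At passage 2 it had 9.97, 9.89 and 9.98 in Tet2-/- cells, against 9.94, 9.89 and 10.08 in Tet2fl/fl cells. The groups overlapped at both passages. The difference, Tet2-/- minus Tet2fl/fl, was -0.05 at passage 10 (adjusted p = 0.921, with a 95% interval of -0.25 to 0.15) and -0.03 at passage 2 (adjusted p = 0.952, with an interval of -0.23 to 0.18). The single row combines probes along the gene, and which of them lie in the deleted segment is not given in the sources used here. It therefore does not check the deletion, and genotypes are as labelled. Here and below, adjusted p-values come from limma's moderated test with Benjamini-Hochberg adjustment over the 16860 genes, differences are on the log2 scale, and values after ± in a difference are standard errors.

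Tet3, a TET enzyme that is also expressed in blood cells, had log2 values of 9.53, 9.42 and 9.50 in Tet2-/- cells at passage 10, against 9.78, 9.59 and 9.78 in Tet2fl/fl cells. At passage 2 it had 9.55, 9.57 and 9.70 in Tet2-/- cells, against 9.88, 9.82 and 9.84 in Tet2fl/fl cells. The 2 genotypes did not overlap at either passage, although the ranges over both passages overlapped (9.42 to 9.70 in Tet2-/- cells, against 9.59 to 9.88 in Tet2fl/fl cells). The adjusted p was 0.311 for the difference of -0.23 ± 0.08 at passage 10 and 0.345 for that of -0.24 ± 0.08 at passage 2. Averaged over both passages it was -0.24 ± 0.06, with an adjusted p of 0.058, which missed the threshold of 0.05. Arrays with the same replicate number deviated from their group means together (correlations of 0.201 to 0.517), though the labels do not say what a number shares. With the number as a block, the adjusted p of the average Tet3 difference was 0.0322. Tet3 was lower in Tet2-/- cells in all 6 pairs of arrays with the same number, which follows from the lack of overlap within each passage.

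Tet1 had higher values in Tet2-/- cells in 5 of 6 pairs and did not pass. It had log2 values of 6.06, 6.79 and 6.41 in Tet2-/- cells at passage 10, against 6.24, 5.90 and 6.03 in Tet2fl/fl cells. At passage 2 it had 6.40, 6.27 and 6.67 in Tet2-/- cells, against 6.18, 5.98 and 6.15 in Tet2fl/fl cells. The genotypes overlapped at passage 10 through the first Tet2-/- array and did not overlap at passage 2. The average difference was 0.35 ± 0.12 (95% interval 0.09 to 0.62, unadjusted p = 0.013 by limma, adjusted p = 0.169), and the block left it above the threshold (adjusted p = 0.142). Among the 3 TET genes, Tet1 thus had a positive difference and Tet3 a negative one on average. The average of Tet3 passed in 6 of 21 alternative settings, the block among them, and that of Tet1 in 0 of 21.

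Dnmt3a, the de novo methyltransferase that blood stem cells need to differentiate, lay lower in Tet2-/- cells in all 6 pairs. Its log2 values were 7.82, 7.70 and 7.80 in Tet2-/- cells at passage 10, against 7.88, 7.87 and 7.96 in Tet2fl/fl cells. At passage 2 they were 7.74, 7.68 and 7.87 in Tet2-/- cells, against 7.996, 8.08 and 7.96 in Tet2fl/fl cells. The genotypes did not overlap within either passage, from which the shared sign of the 6 pairs follows. The difference was -0.13 ± 0.08 at passage 10 (adjusted p = 0.61), -0.25 ± 0.08 at passage 2 (adjusted p = 0.32) and -0.19 ± 0.05 on average (adjusted p = 0.104, and 0.0813 with the block), so that none passed.

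Dnmt3b, the second de novo enzyme, had 6.27 to 6.78 over the 6 Tet2-/- arrays and 6.34 to 6.69 over the 6 Tet2fl/fl arrays. Dnmt1, which copies the pattern after replication, had 10.44 to 10.81 over the Tet2-/- arrays and 10.41 to 10.69 over the Tet2fl/fl arrays. In both genes the genotypes overlapped at each passage. The average difference was -0.03 for Dnmt3b (95% interval -0.25 to 0.19) and 0.01 for Dnmt1 (-0.14 to 0.17). Uhrf1 had an average genotype difference of -0.14 (-0.35 to 0.08, adjusted p = 0.54). In Uhrf1 the sign was not shared by all pairs, since the arrays numbered 3 were higher in Tet2-/- cells at both passages.

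Mbd1, a reader that binds methylated CpG and takes part in silencing, was lower in Tet2-/- cells. Its log2 values were 10.20, 10.12 and 10.05 in Tet2-/- cells at passage 10, against 10.57, 10.35 and 10.52 in Tet2fl/fl cells. At passage 2 they were 10.12, 10.11 and 10.28 in Tet2-/- cells, against 10.34, 10.54 and 10.56 in Tet2fl/fl cells. All 6 Tet2-/- arrays lay below all 6 Tet2fl/fl arrays. The difference was -0.36 ± 0.09 at passage 10 (adjusted p = 0.161), -0.31 ± 0.09 at passage 2 (adjusted p = 0.28) and -0.33 ± 0.06 on average (95% interval -0.48 to -0.19), where it passed (adjusted p = 0.0276, and 0.0216 with the block). Leaving out 1 array ended the call of the average for 7 of the 12 arrays, with adjusted p-values of 0.0655 and 0.0827 without Tet2-/- passage 10 replicates 2 and 3, 0.0661 without Tet2fl/fl passage 10 replicate 3, 0.0828 and 0.0715 without Tet2-/- passage 2 replicates 1 and 2, and 0.0829 and 0.0705 without Tet2fl/fl passage 2 replicates 2 and 3. The difference stayed between -0.37 and -0.31 in these fits.

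Markers of other cell types moved with genotype. The mean log2 signal of 11 mast cell and basophil genes, all measured, was 10.46 to 10.89 in Tet2-/- cells at passage 10, against 11.20 to 11.55 in Tet2fl/fl cells. At passage 2 it was 10.70 to 11.06 in Tet2-/- cells, against 11.27 to 11.40 in Tet2fl/fl cells. Of the 11 genes, 8 had a negative average genotype difference and 3 a positive one, with a median of -0.30. In the average, 2 fell in Tet2-/- cells (5 with the block), Itga2, an integrin subunit (-2.24), and Tpsab1, a tryptase (-1.43). Of all genes, 1.72% passed in this average in either direction (5.41% with the block). Fcer1a, a chain of the IgE receptor, had -1.58 (adjusted p = 0.0505, and 0.0213 with the block), whereas the proteases Prss34 (0.41), Mcpt8 (0.02) and Cpa3 (0.00) had no negative difference. The lowest value on any array was 5.48 for Tpsab1 and 13.3 for Cpa3, a mast cell carboxypeptidase. The 6 eosinophil genes had a mean of 7.41 to 7.60 in Tet2-/- cells at passage 2, against 8.87 to 9.13 in Tet2fl/fl cells, and at passage 10 the groups overlapped (7.08 to 8.58 in Tet2-/- cells, against 7.24 to 9.17 in Tet2fl/fl cells). In the average, 1 of 9 progenitor and gate genes passed as lower in Tet2-/- cells, with or without the block. With the block 2 of the 6 eosinophil genes passed as lower. Also with the block, 2 of 4 measured dendritic cell genes passed as higher. The same held for 1 of 5 monocyte and macrophage genes and 1 of 4 megakaryocyte genes, against 5.41% of all genes in either direction. The part of these cell types in the values of Mbd1, Tet3 and Dnmt3a was not tested. In bulk RNA, fewer cells of a type and less RNA per cell cannot be told apart.

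Mbd4, a glycosylase that binds methylated CpG and removes mismatched thymine, had 7.23 to 7.59 over the 6 Tet2-/- arrays and 6.98 to 7.52 over the 6 Tet2fl/fl arrays. The genotypes overlapped at each passage. Its average difference was 0.09 (95% interval -0.09 to 0.27, adjusted p = 0.678).

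As a group, no member passed at passage 10 or at passage 2, and 1 of 9 passed in the average of both passages. Of all genes, 0.225% passed at passage 10, 0.00593% at passage 2 and 1.72% in the average. With the block, 2 of 9 passed in the average, Tet3 and Mbd1, against 5.41% of all genes, and again none at passage 10 or passage 2, against 1.31% and 0.409%. Unadjusted p-values under 0.05 were found for 2 members at passage 10, 3 at passage 2 and 4 in the average, against 10.6%, 9.95% and 16.1% of all genes. The median average difference of the 9 members was -0.04, beside a median of 0.00 over all genes. Groups did not overlap in 3 members at passage 10 and in 4 at passage 2, against 16.4% and 15.3% of all genes, and across all 12 arrays in 1 member, Mbd1, against 1.79% of all genes.

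**Figure D2:**
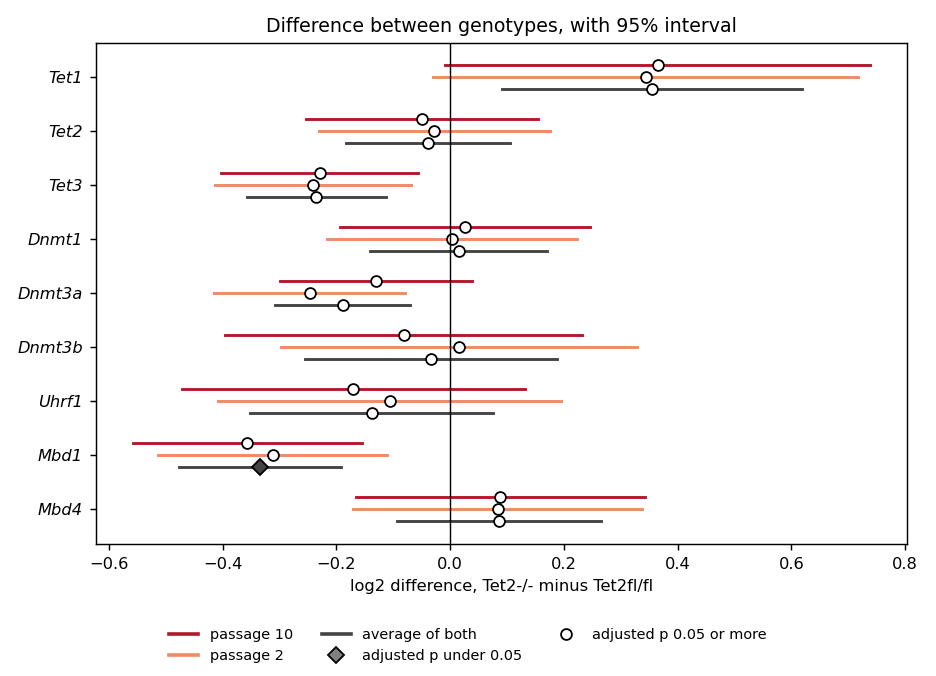
Log2 difference, Tet2-/- minus Tet2fl/fl, of the 9 members at passage 10, at passage 2 and averaged, with 95% intervals from limma. Only the average for Mbd1 (-0.33) is drawn as passing, and Tet1 lies to the right of 0 where Tet3, Dnmt3a and Mbd1 lie to the left.

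The second question is which genes change as the cultures age, from passage 2 to passage 10. Uhrf1 was lower at passage 10. Its log2 values were 8.56, 8.57 and 8.77 in Tet2-/- cells at passage 10, against 9.20, 8.98 and 9.53 in Tet2-/- cells at passage 2. Tet2fl/fl cells had 8.90, 8.91 and 8.60 at passage 10, against 9.23, 9.40 and 9.40 at passage 2. All 6 arrays of passage 10 lay below all 6 of passage 2. The difference, passage 10 minus passage 2, was -0.60 ± 0.14 in Tet2-/- cells (adjusted p = 0.0436, and 0.0314 with the block), -0.54 ± 0.14 in Tet2fl/fl cells (unadjusted p = 0.00224 by limma, adjusted p = 0.401) and -0.57 ± 0.10 on average (adjusted p = 0.0133, and 0.00784 with the block).

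The fall of Uhrf1 was not shown to differ between genotypes, since the interaction, the genotype difference at passage 10 minus that at passage 2, was -0.06 (95% interval -0.49 to 0.36, adjusted p = 0.999). In Tet2fl/fl cells no gene of the 16860 passed the passage comparison in limma without the block, although 10.2% had an unadjusted p under 0.05, and 7 (0.0415%) passed with it. The average call held without any 1 array. The call in Tet2-/- cells held only in the fits without Tet2-/- passage 2 replicate 2 and without Tet2fl/fl passage 10 replicate 3. Without each of the other 10 arrays the adjusted p was between 0.0504 and 0.143.

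None of the other members passed a passage comparison. Dnmt1 had log2 values of 10.46, 10.56 and 10.60 in Tet2-/- cells at passage 10, against 10.74, 10.44 and 10.81 at passage 2, and the passages overlapped. In Tet2fl/fl cells Dnmt1 had 10.58, 10.41 and 10.56 at passage 10, against 10.60, 10.69 and 10.69 at passage 2, with no overlap. The average passage difference of Dnmt1 was -0.13 (95% interval -0.29 to 0.02, adjusted p = 0.247). Thus Uhrf1, which leads Dnmt1 to replicated DNA, had a larger difference than the enzyme itself, though this contrast between the 2 genes was not tested.

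Among the remaining members, Mbd4 had an average passage difference of -0.17 (adjusted p = 0.197), Tet3 -0.13 (adjusted p = 0.17) and Tet2 -0.10 (adjusted p = 0.33). Dnmt3b (-0.07), Dnmt3a (-0.05), Tet1 (-0.04) and Mbd1 (-0.02) lay nearer to 0. All 9 average differences were negative, with a median of -0.10, beside a median of 0.04 over all genes. Of the 9 members 1 passed in Tet2-/- cells, against 2.98% of all genes, and 1 of 9 (11.1%) in the average, against 7.77% of all genes, a share close to that background. The block added no member (13.2% of all genes passed in the average). At an unadjusted p under 0.05 there were 1 member in Tet2-/- cells, 1 in Tet2fl/fl cells and 2 in the average, against 21.6%, 10.2% and 26.8% of all genes. Groups did not overlap in 2 members in Tet2-/- cells (Tet3 and Uhrf1), in 4 in Tet2fl/fl cells (Tet3, Dnmt1, Dnmt3a and Uhrf1) and in 1 across all arrays (Uhrf1), against 28.3%, 14.5% and 3.8% of all genes.

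**Figure D3:**
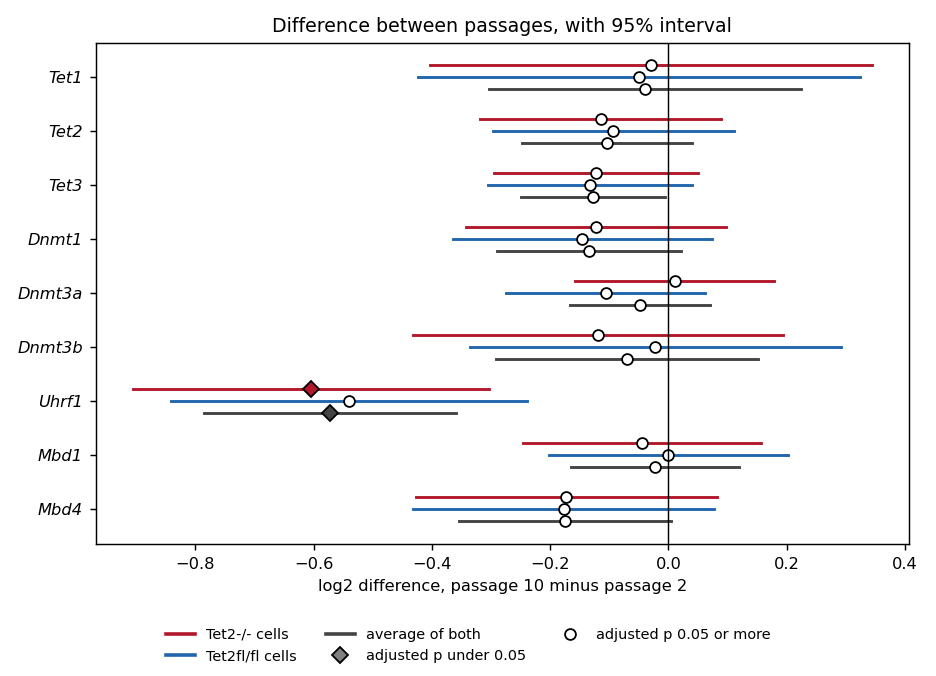
Log2 difference, passage 10 minus passage 2, of the 9 members in Tet2-/- cells, in Tet2fl/fl cells and averaged, with 95% intervals from limma. Uhrf1 lies near -0.6 in both genotypes and is drawn as passing in Tet2-/- cells (-0.60) and in the average (-0.57), and no other member passes.

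The partners of maintenance methylation gave values beside those of Uhrf1. Hells, a chromatin remodeller that DNA methylation of repeats requires, had log2 values of 7.50, 7.40 and 7.56 in Tet2-/- cells at passage 10, against 8.38, 8.19 and 8.67 at passage 2. Tet2fl/fl cells had 7.86, 7.75 and 7.28 at passage 10, against 8.05, 8.24 and 8.37 at passage 2. All arrays of passage 10 lay below all arrays of passage 2. Hells fell by 0.92 ± 0.16 in Tet2-/- cells (adjusted p = 0.0263) and by 0.76 ± 0.11 on average (adjusted p = 0.0101).

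Cdca7, the zinc finger protein that activates Hells, had 8.26, 8.34 and 8.53 in Tet2-/- cells at passage 10, against 9.02, 8.66 and 9.19 at passage 2. Tet2fl/fl cells had 8.60, 8.37 and 8.45 at passage 10, against 8.78, 8.99 and 9.01 at passage 2. Its passages did not overlap either. Cdca7 fell by 0.58 ± 0.13 in Tet2-/- cells (adjusted p = 0.0439) and by 0.52 ± 0.10 on average (adjusted p = 0.0161). Pcna, the sliding clamp of replication, which also binds Dnmt1, fell by 0.30 ± 0.06 on average (adjusted p = 0.0226), with 11.10 to 11.31 at passage 10, against 11.39 to 11.69 at passage 2. The average calls of Hells and Cdca7 held without any 1 array. That of Pcna was lost without Tet2-/- passage 10 replicate 2 (adjusted p = 0.0556), Tet2fl/fl passage 10 replicate 3 (0.0524) or Tet2fl/fl passage 2 replicate 3 (0.0589). In Tet2-/- cells alone, the call of Hells was lost without any 1 of the Tet2-/- arrays except passage 2 replicate 2 (adjusted p of 0.0619 to 0.0919), and that of Cdca7 in 11 of the 12 such fits (0.0504 to 0.143).

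The E2F core is printed for the 3 of these genes whose promoter windows hold it, with 10 bases on either side and the core in capitals. The sites are at chr17:56303279-56303305 (Uhrf1), chr19:38930919-38930945 (Hells) and chr2:72476138-72476164 (Cdca7) of GRCm38.p6, read on the plus strand, with the core 48, 61 and 71 bases before the start.
Uhrf1 site: gctttctcgcTTCCCGCcacagcgcca
Hells site: ccaccgggttTTCCCGCgaaagagaag
Cdca7 site: gcgtcccggcGCGGGAAagccggtggc
The site of Cdca7 reads as the reverse complement of the other two. The Pcna window does not hold these letters, and in all 3.86% of windows do. These genes were chosen after their values were seen, so how many of them hold the core cannot be set against that share. Matches in the other genes that passed with passage are not given here. Whether the core bears on the falls was not tested.

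Genes of proliferation moved with passage in the same samples. Of 16 listed, 15 were measured, and all 15 had a negative average passage difference, with a median of -0.44, beside 0.04 over all genes. On average 9 of the 15 fell at passage 10 (13 with the block). In Tet2-/- cells 1 fell (7 with the block), against 2.98% of all genes (7.94% with the block). In Tet2fl/fl cells none fell (none with the block), where 0% of all genes passed (0.0415% with the block). The medians were -0.44 in Tet2-/- cells and -0.45 in Tet2fl/fl cells. The mean signal of the list was 9.55 to 9.91 in Tet2-/- cells at passage 10, against 9.86 to 10.42 at passage 2. In Tet2fl/fl cells it was 9.54 to 9.74 at passage 10, against 9.96 to 10.24 at passage 2. Markers of other cell types moved with passage as well. Of 10 genes of maturing neutrophils, 8 had a negative average passage difference, with a median of -0.74 and a lowest value of -2.15, and 1 fell (4 with the block). Their mean signal was 6.79 to 7.59 in Tet2-/- cells at passage 10, against 7.81 to 8.56 at passage 2, and 6.51 to 8.25 in Tet2fl/fl cells at passage 10, against 7.77 to 9.16 at passage 2. All 4 measured megakaryocyte genes (of 5) had a positive difference, with a median of 0.40 and a highest value of 1.75, and 1 rose (2 with the block). Their mean signal was 8.31 to 9.20 in Tet2-/- cells at passage 10, against 7.89 to 8.24 at passage 2, and 8.33 to 9.26 in Tet2fl/fl cells at passage 10, against 7.97 to 8.13 at passage 2. Of 2 measured B cell genes 1 rose on average, with or without the block, with a highest difference of 0.34. With the block, 2 of 5 measured monocyte and macrophage genes rose on average, and of 9 progenitor and gate genes 1 rose and 1 fell. Of all genes 7.77% passed on average, and 13.2% with the block. The part of proliferation and of these cell types in the values of Uhrf1, Hells and Cdca7 was not tested.

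**Figure D4:**
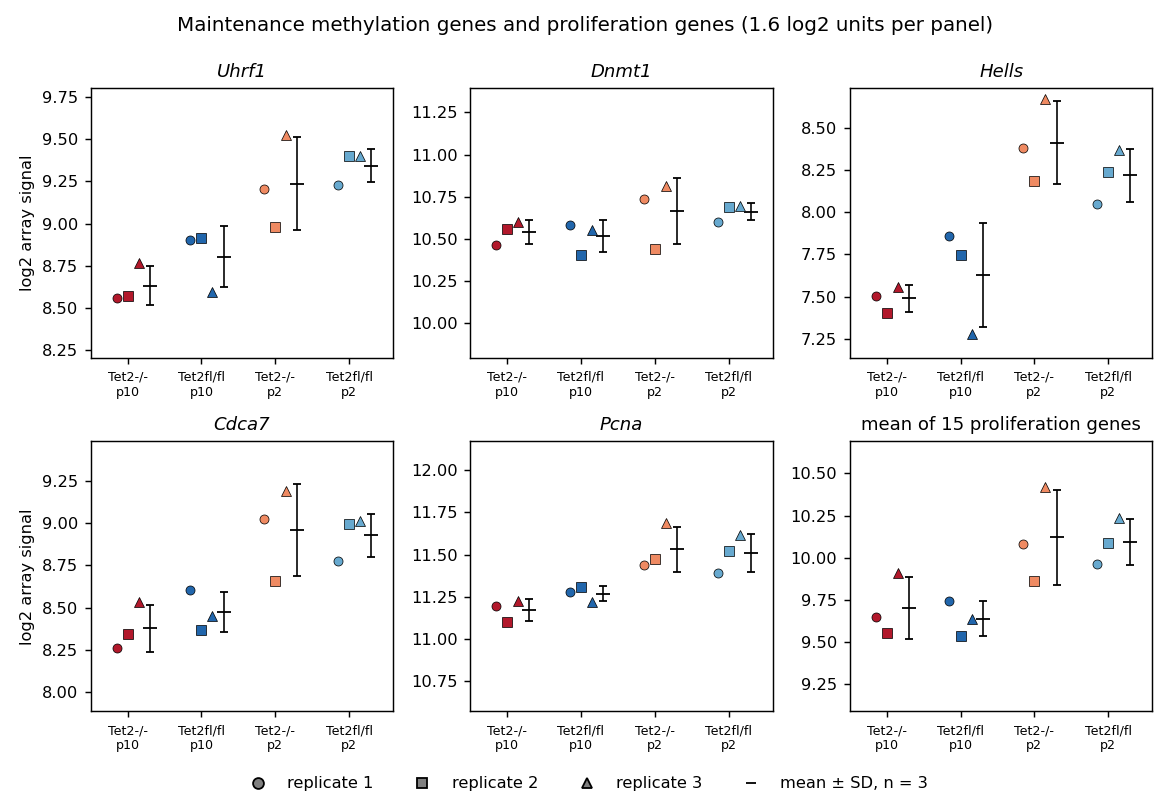
Log2 signal of Uhrf1, Dnmt1, Hells, Cdca7 and Pcna and the mean of 15 proliferation genes, each point 1 array and each bar the mean of 3, for Tet2-/- and Tet2fl/fl cells at passages 10 and 2. Uhrf1, Hells, Cdca7 and Pcna lie lower at passage 10 on all arrays, while Dnmt1 overlaps between passages in Tet2-/- cells.

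The wider pathway was a list of 61 other gene symbols, of which 50 were measured. These were 15 of 16 symbols for partners of methylation, 7 of 9 for other readers and 11 of 14 for base excision repair and demethylation. A further 14 of 16 were for cofactors and partners of TET enzymes, and 3 of 6 for methyl donor metabolism. None of the 50 passed a genotype comparison in limma, with or without the block, at passage 10, at passage 2 or on average. At an unadjusted p under 0.05 there were 1, 5 and 7 of the 50, against 10.6%, 9.95% and 16.1% of all genes. Nearest to passing were Mtr, methionine synthase, at passage 10 (-0.21, adjusted p = 0.395) and Gadd45g, a stress gene linked to demethylation, at passage 2 (-0.36, adjusted p = 0.268) and on average (-0.24, adjusted p = 0.122).

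With passage, 6 of the 50 (12%) passed on average, 3 in each direction, against 7.77% of all genes. The 3 that fell are Hells, Cdca7 and Pcna. Those that rose are Ehmt2, a histone methyltransferase for lysine 9 of histone H3 (0.22, adjusted p = 0.0265), Gadd45g (0.30, adjusted p = 0.0327) and Zbtb33, the reader Kaiso (0.21, adjusted p = 0.0438). Each of these rises missed the threshold in some fits that left out 1 array, with adjusted p-values up to 0.0657 for Ehmt2, 0.0757 for Gadd45g and 0.105 for Zbtb33, each highest without Tet2-/- passage 10 replicate 2. Ehmt2 lost its call without 5 of the 12 arrays, Gadd45g without 9 and Zbtb33 without 11. With the block 4 rose and 5 fell, against 13.2% of all genes. Cxxc5, a CpG-binding protein (0.46, adjusted p = 0.00639), the glycosylase Neil3 (-0.59, adjusted p = 0.00292) and the deubiquitinase Usp7, which acts on Uhrf1 and Dnmt1 (-0.18, adjusted p = 0.0428), were the ones added. The median difference of the 50 genes was -0.03, beside 0.04 over all genes.

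In Tet2-/- cells 2 of the 50 fell between the passages, Hells and Cdca7, and none rose, so that 4% passed, against 2.98% of all genes. With the block 4 fell and 3 rose, against 7.94% of all genes. Added were Pcna (-0.36, adjusted p = 0.0325) and Neil3 (-0.67, adjusted p = 0.0117), which fell, and Zbtb24, a zinc finger activator of Cdca7 (0.26, adjusted p = 0.0463), Gadd45g (0.42, adjusted p = 0.0237) and Cxxc5 (0.49, adjusted p = 0.025), which rose. In Tet2fl/fl cells none of the 50 passed with or without the block, and Hells was nearest (-0.59, adjusted p = 0.401). An unadjusted p under 0.05 was found for 7 of them, against 10.2% of all genes.

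The effect of genotype was not shown to change with passage for any member. Interactions ran from -0.10 (Dnmt3b) to 0.12 (Dnmt3a), each with an adjusted p of 0.999 in limma, and none had an unadjusted p under 0.05, against 3.22% of all genes. Their 95% intervals reached from -0.12 to 0.35 for Dnmt3a and from -0.51 to 0.55 for Tet1, so that changes of this size were not detectable with 3 arrays a group. In the wider list none passed, and Zbtb24 was nearest (0.22, adjusted p = 0.999).

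Tdg could not be read alone. The row annotated to Tdg and Tdg-ps averaged 5.33 in Tet2-/- cells at passage 10, against 5.22 in Tet2fl/fl cells, and 5.40 in Tet2-/- cells at passage 2, against 5.52 in Tet2fl/fl cells. The row annotated to Tdg-ps2 and Tdg had 6.14, 8.69 and 7.12 in Tet2-/- cells at passage 10, against 6.21, 8.12 and 7.35 in Tet2fl/fl cells. At passage 2 it had 6.74, 7.67 and 7.13 in Tet2-/- cells, against 6.87, 7.91 and 6.91 in Tet2fl/fl cells. Genotypes and passages overlapped in this row, and signal of the gene and of its pseudogenes cannot be separated here.

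For each member the 2 genes with the most similar pattern over the 12 arrays were found by Pearson's r, as a description over arrays that share groups and replicate numbers. For Uhrf1 these were Tmem209 (r = 0.98) and Rrm2 (r = 0.98), a subunit of ribonucleotide reductase, which is also on the proliferation list. For Mbd1 they were Ano6 (r = 0.97) and Slc16a12 (r = 0.96), for Tet3 Med10 and Trappc10 (r = 0.95 each), and for Dnmt3a Tmem147 (r = 0.97) and Zdhhc5 (r = 0.96). Tet1 was nearest to Nudt21 (r = 0.95) and B4galnt4 (r = 0.89), Tet2 to Hipk2 and Agtpbp1 (r = 0.93 each), and Dnmt1 to Nup133 (r = 0.95) and Dna2 (r = 0.93). Dnmt3b was nearest to Tubb4b (r = 0.92) and Tom1l1 (r = 0.87), and Mbd4 to Troap (r = 0.95) and Pik3cb (r = 0.94).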

How the data were processed

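RNA (100 ng per sample) was measured on 12 arrays. The deposited values are log2 signals that the authors made with RMA in Affymetrix Power Tools, per the submitters' processing notes, with versions not given in the sources used here. They were used as deposited. Of 41345 rows, 28941 had a mean at or above the 30th percentile (log2 4.70). Of all rows 23521 had 1 gene symbol, 1814 several and 16010 none; symbols were updated by gene ID for 23328. The row with the highest mean stood for a gene, giving 16860 genes.

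Groups came from the sample labels. With limma 3.58.1 (R 4.3.3), 1 model with a term per group was fitted to the 12 arrays together, for 7 contrasts: genotype at each passage and averaged, passage in each genotype and averaged, and the interaction. Tests were two-sided with a threshold of 0.05 after Benjamini-Hochberg adjustment within a contrast. Deviations from group means correlated at 0.201 to 0.517 between arrays that share a replicate number (18 pairs) and at -0.369 to 0.0532 for the 36 other pairs. Deviations within a group cancel out, so these ranges depend on each other and that of the other pairs is no separate sign of pairing. A fit with the number as a block is given where it changes a call. The labels do not say what a number shares.

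All members were named, wider-list genes where they passed or were nearest to passing, and the 2 genes most similar to each member. Pcna, Hells and Cdca7 promoters were chosen after their values were seen. The members and lists were chosen with earlier results of these data known. Promoters came from RefSeq (GRCm38.p6). The steps were tested on simulated data. Alternatives were other scaling, filters, limma options, blocks, row rules, a fit without the other groups, and leaving out single arrays.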

Additional observations from a re-analysis of the deposited data

How the results depend on the processing

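Counts of members that passed were recomputed under 21 alternatives for the averages and the interaction and 22 for the single contrasts. For the average genotype comparison the count of 1 became 2 (Tet3 and Mbd1) with array medians set equal, limma's trend and robust options, the stricter filter at the 50th percentile, the replicate block and the random replicate block, and 3 (with Dnmt3a) with array weights; leaving out 1 array gave 0 to 1. For passage in Tet2-/- cells the count of 1, Uhrf1, became 0 with equal medians (adjusted p = 0.0638), no filter (0.0588) and a fit without the other groups (0.0879), and leaving out 1 array gave 0 to 1. In the fit with the replicate block it remained 1. The other counts of members did not change. Mbd1 passed on average in 14 of 21 alternatives (-0.37 to -0.31), Tet3 in 6 of 21 (-0.27 to -0.22), and Uhrf1 with passage on average in 21 of 21 (-0.64 to -0.50). Of 63 member differences, 31 were within 1 standard error of 0, and 27 of these changed sign under an alternative. No other difference of a member changed sign. The cause of these shifts was not tested. Over all genes 912 passed with the replicate block and 290 without it for genotype on average, and 2223 with it and 1310 without it for passage on average. The number of arrays, 3 a group, limits the precision.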

Other observations

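In the row shared by Tdg-ps2 and Tdg, values followed the replicate number more than the groups. The 4 arrays numbered 2 lay at 7.67 to 8.69 and were the highest of their group in all 4 groups, and those numbered 1 lay at 6.14 to 6.87 and were the lowest in all 4. What the replicate numbers share is not stated in the labels. In Neil3, a glycosylase of the wider list, the array numbered 2 was instead the lowest of its group in all 4 groups, with 7.22 and 7.98 in Tet2-/- cells at passages 10 and 2, against 7.15 and 7.77 in Tet2fl/fl cells.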
